A study of Mus musculus with 2 samples.

Results

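The 10 genes described here encode the chaperones and stress regulators by which cells fold secreted proteins in the endoplasmic reticulum: the lumenal chaperones Hspa5 and Hsp90b1, the disulfide isomerase Pdia4, the co-factors Creld2, Sdf2l1 and Dnajb9, the chaperone-associated secreted factor Manf, the degradation component Herpud1, and the transcription factors Xbp1 and Ddit3. They were chosen by name, with earlier results of these data known. They are 10 of the 22253 genes in a single-cell RNA count matrix of mouse distal small intestinal organoids, and all 10 had counts. The study compared 2 control cultures with 3 cultures mutant for Etv1, a transcription factor of the ETS family. All 5 cultures, controls included, were labelled Neurog3-RFP;Gcg-Venus, the genotype of 2 reporters, for cells entering the enteroendocrine lineage and for cells with proglucagon. Cells were sorted, marked by culture with hashtag oligos, pooled and sequenced together, so that a culture is known here from its hashtag counts. The nature of the Etv1 mutation, the sort gate, the age of the mice and whether cultures came from different mice are not stated in the labels, which call the cultures biological replicates. If they share an animal, the spread between them is technical.

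Proteins destined for secretion enter the endoplasmic reticulum, where chaperones of the Hsp70 and Hsp90 families, isomerases and glycosylating enzymes fold them, and molecules that fail to fold are returned to the cytosol for degradation. When unfolded protein builds up, the unfolded protein response is started by the membrane sensors IRE1, ATF6 and PERK. IRE1 splices Xbp1 mRNA and, with ATF6, raises chaperone genes, while PERK phosphorylates eIF2 alpha and so favours ATF4, which raises Ddit3 and genes of amino acid supply. In the gut, goblet and Paneth cells secrete mucins and antimicrobial peptides in large amounts and depend on Xbp1.

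After filtering and assignment by hashtag, 1432 cells were analysed, 197 to 349 per culture, with 4193197 to 7254380 summed unique molecular identifiers (UMIs) and medians of 20842 to 24126 UMIs per cell. Etv1 itself stood at 6.2 and 6.28 CPM, which is counts scaled to a common library total, in the control cultures and at 3.21, 3.06 and 3.10 CPM in the mutant cultures, from 45, 44, 20, 20 and 13 counts. The groups did not overlap, and the log2 difference was −1.0 (SE 0.22), which did not pass adjustment over all genes (edgeR adjusted p = 1.0). Clusters were made without the 10 genes and without the related gene lists used here, and were named only from marker genes. Goblet/Paneth-like cells (85, led by Spink4, Fcgbp and Defa17) and enteroendocrine-like cells (54, led by Chgb and Chga) together form the secretory class of 18 to 43 cells per culture. The absorptive class is 237 enterocyte-like cells in 3 clusters, 29 to 64 per culture. Of the 3, only the cluster led by Apoa1 (97 cells) had an enterocyte marker among its top 10 genes. The others were led by St3gal4 and Fabp6 (105 cells) and by Ly6d and Sprr1a (35 cells). Stem-like cells numbered 304 and cycling-like cells 314. Cluster 4 (180 cells, led by Atf5) could not be named, and clusters 9 and 10, of 179 and 79 cells, were also unnamed. Cluster 9, led by mitochondrial genes, had medians of 18.6% mitochondrial counts and 5668 UMIs per cell, and cluster 10 a median of 1410 UMIs. Such values can mark damaged cells or near-empty barcodes, and both clusters enter the comparison of genotypes over all cells. No mesenchymal marker (0 of 7) had a count in any class, and immune markers summed to at most 17.0 CPM. Summed goblet/Paneth markers stood at 18375 to 145340 CPM in goblet/Paneth-like cells, at 4527 to 8838 CPM in enteroendocrine-like cells and at 703 to 2313 CPM in enterocyte-like cells.

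Some promoters of these genes carry the letters that the response's transcription factors are known to bind, and the 4 with a match are shown before the values. The window searched was 250 bases before to 50 after the RefSeq start (build GRCm38.p6) on both strands, and 9 of the 10 genes matched the table, all but Manf. Each gene was counted once, for a match in any of its promoters. The endoplasmic reticulum stress element (ERSE: CCAAT, 9 bases of any kind, CCACG) was in 37 of 27025 genes in all (0.137%). Among genes of the matrix it was in 28 of 16749 (0.167%), and among the 9 genes here in 3 (33.3%). Those 3 were Hspa5 (first base at −65 from the start), Hsp90b1 (matches at −212 and, on the opposite strand, −107) and Creld2 (−126, opposite strand). ERSE-II (ATTGG, 1 base, CCACG) was in the Herpud1 promoter at −52, 1 of 9 against 0.0444% of all genes. The same promoter held an ATF4-type CARE element (TTGCATCA) at −112, 1 of 9 against 1.03%. The core TGACGTGG, bound by XBP1, was in 0 of 9 and in 0.714% of all. ERSE and ERSE-II each contain CCACG and CCAAT or its reverse complement, which alone were in 7 and 8 of 9 promoters and in 35.5% and 41.1% of all. A match describes letters only, and a promoter without one shows only that these letters were not in the window. The elements were chosen as known for this response, so matches among its genes were likely beforehand. The shares here and for the related lists are therefore no test of enrichment. Gene positions given below are from GENCODE, not RefSeq. By those positions Hspa5 and Hsp90b1 start within the 250 bases shown, and the Hspa5 ERSE lies inside the gene. The 250 bases before the start are given 5′ to 3′ on the gene's strand, with the matches in capitals, for Hspa5 (chr2:34771840-34772089, + strand), Hsp90b1 (chr10:86705445-86705694, − strand), Creld2 (chr15:88819396-88819645, + strand) and Herpud1 (chr8:94386179-94386428, + strand).
Hspa5: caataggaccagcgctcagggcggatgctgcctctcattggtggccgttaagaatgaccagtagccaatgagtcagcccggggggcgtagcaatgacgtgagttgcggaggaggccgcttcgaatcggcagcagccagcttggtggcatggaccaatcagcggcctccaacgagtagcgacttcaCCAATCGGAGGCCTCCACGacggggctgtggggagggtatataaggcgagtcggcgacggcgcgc
Hsp90b1: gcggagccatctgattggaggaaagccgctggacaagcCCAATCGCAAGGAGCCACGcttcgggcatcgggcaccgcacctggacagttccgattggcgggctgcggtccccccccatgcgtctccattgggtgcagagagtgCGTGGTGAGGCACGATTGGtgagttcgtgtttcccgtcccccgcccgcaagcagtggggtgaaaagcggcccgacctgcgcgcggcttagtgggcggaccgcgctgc
Creld2: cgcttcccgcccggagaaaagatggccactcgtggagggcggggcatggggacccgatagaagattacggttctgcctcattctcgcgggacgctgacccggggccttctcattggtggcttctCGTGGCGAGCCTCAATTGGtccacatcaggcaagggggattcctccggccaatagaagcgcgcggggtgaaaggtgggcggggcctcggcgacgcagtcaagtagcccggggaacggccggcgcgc
Herpud1: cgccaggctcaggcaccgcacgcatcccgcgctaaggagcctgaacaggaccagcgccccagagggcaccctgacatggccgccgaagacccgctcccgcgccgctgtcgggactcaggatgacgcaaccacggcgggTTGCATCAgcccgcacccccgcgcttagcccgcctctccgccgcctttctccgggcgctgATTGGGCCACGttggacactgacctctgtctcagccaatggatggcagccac

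Among genes fixed as related lists, ERSE was in 6 of 17 promoters of lumenal chaperones (35.3%), a list that holds 6 of the 10 genes, in 2 of 18 of disulfide enzymes (11.1%) and in 2 of 17 of degradation genes (11.8%). None of the 25 promoters of targets of PERK and the integrated stress response held one. There CARE was in 7 of 25 (28.0%), and it was in 0 of 17 chaperone promoters.

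The first comparison asked how secretory cells differ from absorptive cells of the same culture. Of the 10 genes, 8 were higher in secretory cells, 1 was lower and 1 was not called (edgeR quasi-likelihood test on counts summed per culture and class, culture as a block, Benjamini-Hochberg adjusted p under 0.05 over 6294 genes). The comparison called 26.3% of all tested genes higher and 26.9% lower, so calls in either direction were common. The largest rises were those of Sdf2l1, Creld2 and Herpud1, at 2.87, 2.69 and 2.46 times the absorptive level, and the smallest were those of Hspa5 and Xbp1, at 1.36 and 1.38 times. Ddit3 alone was lower. For 8 of 10 genes the 5 secretory values lay clear of the 5 absorptive values, against 39.8% of all genes. The median log2 difference of the 10 genes was 0.79, against 0.04 for all genes tested. Since the 10 were chosen with earlier results known, these contrasts with all genes are descriptive. With every cell weighted equally, 60.7% of all calls were higher, against 49.4% here.

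**Figure D1:**
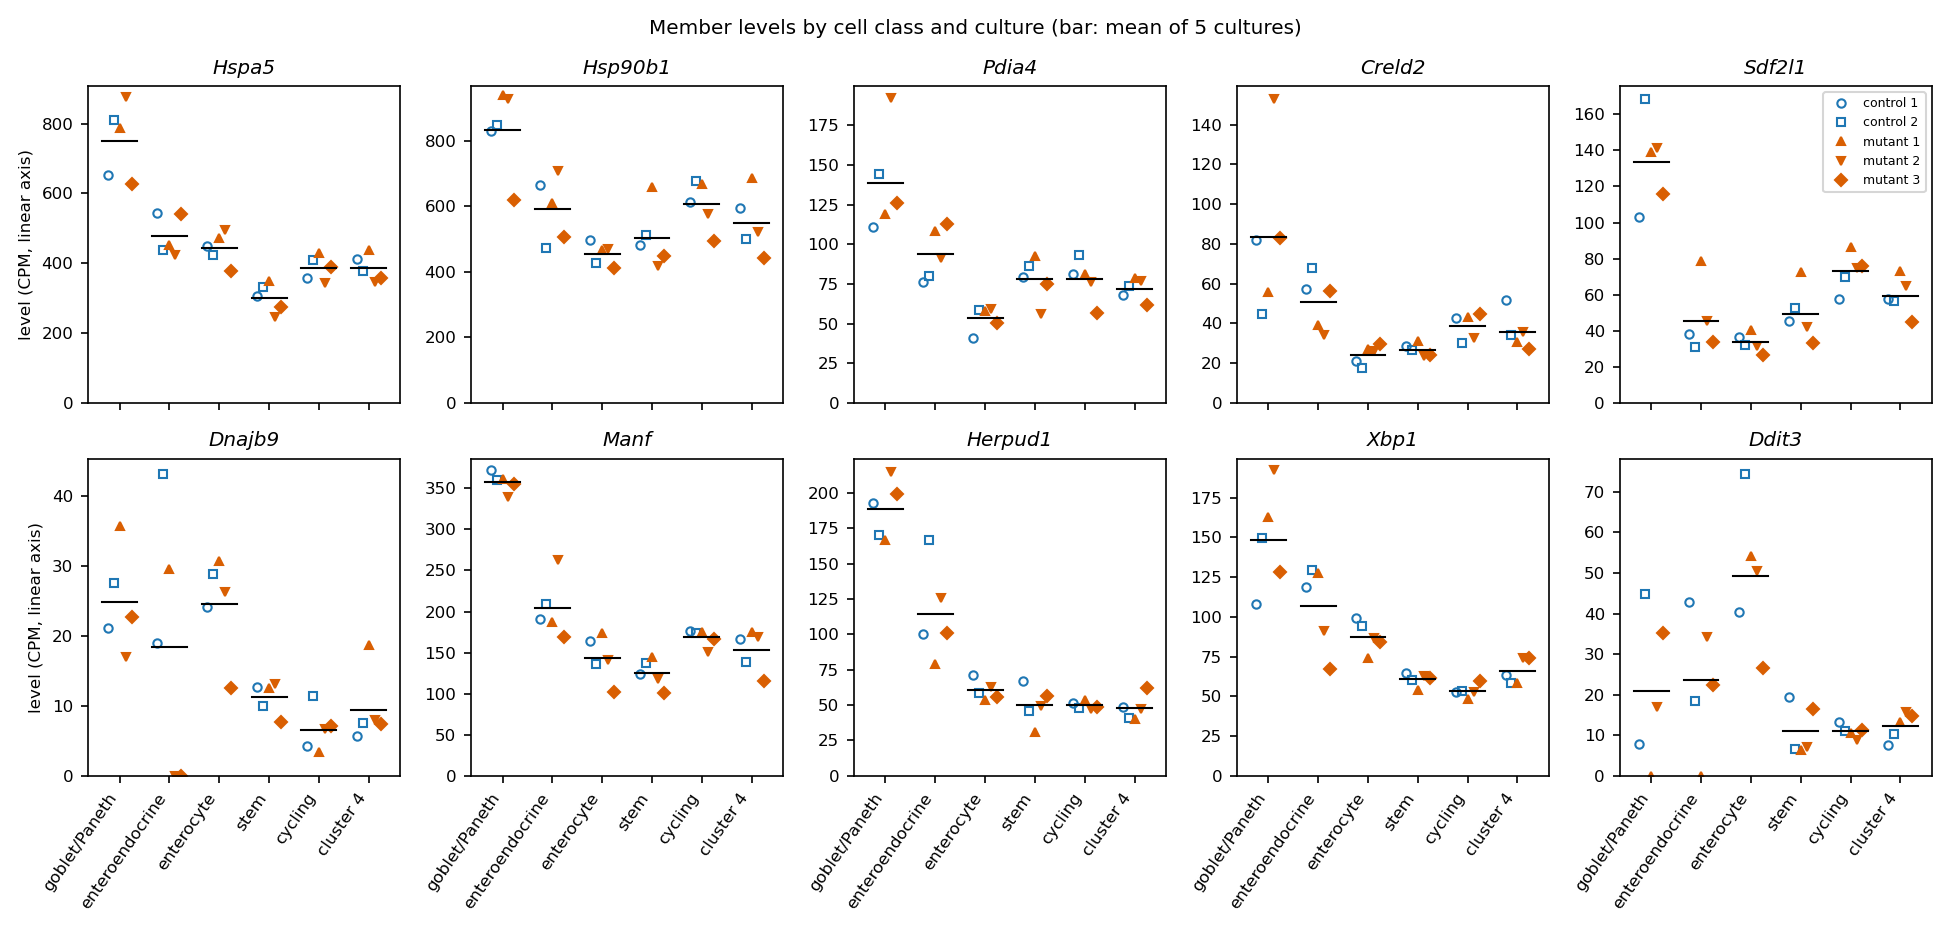
Level of each gene in CPM (linear axis from 0, own scale per gene) in 6 cell classes. Open blue symbols are the 2 control cultures, filled orange symbols the 3 mutant cultures, and bars the mean of 5 cultures. Goblet/Paneth-like cells had the highest mean for 9 genes, such as Manf at 339 to 372 CPM, and Ddit3 had its highest mean in enterocyte-like cells at 26.6 to 74.4 CPM.

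Hspa5 (chr2:34771970-34777547, mm10) encodes BiP, the Hsp70 of the endoplasmic reticulum, which also holds the stress sensors inactive. Its secretory levels in control cultures 1 and 2 and mutant cultures 1, 2 and 3 were 613, 729, 691, 726 and 611 CPM, and its absorptive levels 449.7, 423, 473, 496 and 378 CPM. Every secretory value exceeded every absorptive one. The log2 difference was 0.44 (SE 0.10; edgeR adjusted p = 0.00179). It missed the threshold without the filter on low counts (0.27, adjusted p = 0.130), a fit in which the median of all genes fell by 0.167. Relative to that shift the difference was 0.44.

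Hsp90b1 (chr10:86690209-86705509) encodes GRP94, the Hsp90 of the same compartment. It stood at 773, 767, 846, 854 and 599 CPM in secretory cells and at 498, 428, 466.5, 471 and 413 CPM in absorptive cells, with no overlap. The log2 difference was 0.58 (SE 0.10; edgeR adjusted p = 0.000198). Pdia4 (chr6:47796141-47813430), a protein disulfide isomerase found in complexes with BiP, stood at 98.5, 130.5, 116, 159 and 123 CPM against 41.1, 58.9, 57.9, 59.2 and 50.4 CPM. Here too the classes lay apart, with a log2 difference of 1.06 (SE 0.13; edgeR adjusted p = 9.83e-06).

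The co-factors differed more. Sdf2l1 (chr16:17130138-17132383), a partner of BiP and its J proteins, stood at 79.8, 139, 122, 109.6 and 101 CPM in secretory cells against 36.5, 32.2, 40.7, 31.8 and 26.6 CPM in absorptive cells. The lowest secretory culture, control 1, lay well above the highest absorptive one, mutant 1, and the log2 difference was 1.52 (SE 0.16; edgeR adjusted p = 2.40e-06). Creld2 (chr15:88819646-88826683), a secreted disulfide isomerase-like protein, stood at 73.0, 49.8, 50.9, 113 and 78.2 CPM against 20.9, 17.8, 27.1, 26.3 and 29.4 CPM, with a log2 difference of 1.43 (SE 0.20; edgeR adjusted p = 2.64e-05). Its secretory spread was wide, and mutant culture 2 was the highest. Manf (chr9:106838312-106891979), a BiP-binding factor that is secreted under stress, stood at 307, 327, 311.3, 314 and 321 CPM against 164, 136, 174, 141 and 102 CPM. Its secretory values were the tightest of the set, at 316 ± 7.81 CPM (SD, n = 5), and the log2 difference was 0.99 (SE 0.12; edgeR adjusted p = 8.97e-06).

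Dnajb9 (chr12:44205559-44210326), the J protein ERdj4, which restrains IRE1, was the exception among the chaperones. It stood at 20.4, 30.9, 34.0, 11.3 and 18.5 CPM in secretory cells and at 24.1, 28.9, 30.7, 26.3 and 12.6 CPM in absorptive cells. The classes overlapped and 3 of 5 cultures had the higher value in secretory cells (log2 difference −0.22, SE 0.24; edgeR adjusted p = 0.466). With only 3 to 23 secretory counts per culture, a modest difference was not detectable. Against the Apoa1-led enterocyte-like cluster alone, Dnajb9 was lower in secretory cells (−0.66; edgeR adjusted p = 0.0422).

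Herpud1 (chr8:94386438-94395377), a membrane protein of the degradation complex, stood at 159.6, 169, 142, 185 and 181 CPM in secretory cells and at 71.0, 58.9, 53.3, 62.5 and 56 CPM in absorptive cells. The 2 ranges lay far apart, and the log2 difference was 1.30 (SE 0.12; edgeR adjusted p = 6.23e-07). Xbp1 (chr11:5520659-5525893), the transcription factor spliced by IRE1, stood at 112, 145, 153, 159 and 117 CPM against 99.1, 94.4, 74.1, 86.6 and 84.0 CPM, a log2 difference of 0.46 (SE 0.14; edgeR adjusted p = 0.0109). The classes did not overlap, but control culture 1 gave only 112 against 99.1 CPM. The Xbp1 call was lost with DESeq2 (adjusted p = 0.0836) and in edgeR without the filter on low counts (0.30, adjusted p = 0.152; 0.46 relative to the shift of all genes). These gene counts do not separate spliced from unspliced Xbp1.

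Ddit3 (chr10:127290774-127296288) encodes CHOP, a transcription factor of the PERK arm that is linked to cell death under lasting stress. It stood at 20.4, 39.0, 0, 22.7 and 32.9 CPM in secretory cells, from 12, 29, 0, 6 and 16 counts, and at 40.4, 74.4, 54.2, 50.4 and 26.6 CPM in absorptive cells. Secretory cells were lower in 4 of 5 cultures and higher in mutant culture 3, and the ranges overlapped. The log2 difference was −1.19 (SE 0.34; edgeR adjusted p = 0.00874), and without mutant culture 1, which had no secretory Ddit3 count, it was −0.88 (adjusted p = 0.0107). With every cell weighted equally (limma) it missed the threshold (−1.65, adjusted p = 0.0506), and over all alternatives the adjusted p ran from 7.23e-08 to 0.0506. A second annotated gene entry of the same name overlaps Ddit3, and the matrix holds 1 row under that symbol.

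The secretory class pools 2 kinds of cell, which were also compared one at a time. Goblet/Paneth-like cells carried the larger differences. Against enterocyte-like cells of the same culture these were higher for the same number of genes, 8 of 10, and lower for Ddit3 (edgeR, 5724 genes tested; 49.9% of all genes were called, 25.2% higher and 24.7% lower). The log2 differences were larger than for the pooled class: 1.98 (SE 0.16) for Sdf2l1, 1.75 (SE 0.24) for Creld2, 1.65 (SE 0.13) for Herpud1, 1.37 (SE 0.15) for Pdia4 and 1.34 (SE 0.12) for Manf. Hsp90b1, Hspa5 and Xbp1 followed at 0.87, 0.76 and 0.73. The edgeR adjusted p values of these 8 genes ran from 1.53e-07 for Herpud1 to 0.00112 for Xbp1, and for all 8 the cultures of the 2 classes lay apart, against 33.8% of all genes. Dnajb9, at 0.04 (SE 0.25), was not called.

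By culture, Hspa5 reached 652, 810.3, 787, 876 and 627 CPM in goblet/Paneth-like cells, each above the highest enterocyte-like value of 496 CPM. Manf reached 372, 359.6, 362, 339 and 355 CPM, against at most 174 CPM in enterocyte-like cells. Xbp1 reached 108, 149.7, 163, 192 and 128 CPM, and its lowest value, in control culture 1, was only just above the highest enterocyte-like value of 99.1 CPM. Ddit3 stood at 7.92, 44.7, 0, 17.0 and 35.3 CPM from 46 counts in all, of which 6 came from 1 cell. Its log2 difference of −1.11 (SE 0.38; edgeR adjusted p = 0.0248) was lost without control culture 1 (−1.01, adjusted p = 0.0586), without mutant culture 2 (−1.05, adjusted p = 0.0554) and without the culture block (−0.99, adjusted p = 0.0578). Without the filter on low counts, 38.8% of all calls in this comparison were higher, against 50.6% here.

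Enteroendocrine-like cells, which package hormones, differed from enterocyte-like cells in fewer of these genes. Herpud1 (log2 difference 0.60, SE 0.23; edgeR adjusted p = 0.0365) and Creld2 (0.87, SE 0.31; adjusted p = 0.0277) were higher, Ddit3 was lower (−1.24, SE 0.41; adjusted p = 0.0179) and 7 of 10 were not called (5142 genes tested; 24.6% of all called higher and 25.2% lower). Herpud1 stood at 99.96, 166, 78.7, 126 and 101 CPM, all above the enterocyte-like cultures. Creld2 stood at 57.1, 67.8, 39.4, 34.3 and 56.3 CPM from only 3 to 12 counts per culture. The count of higher genes ran from 0 to 5 over the alternatives, with 0 genes higher without control culture 2 or without mutant culture 3 and 1 higher without any other single culture. Ddit3 was not called without control culture 2 (−0.96, edgeR adjusted p = 0.105) or with cells weighted equally (−1.73, limma adjusted p = 0.108). With equal weights Manf, Pdia4 and Hsp90b1 passed as higher (0.94, 0.93 and 0.54; limma adjusted p = 0.00171, 0.0195 and 0.0148). Hspa5, at 543, 438, 453, 422 and 540.0 CPM, differed by −0.18 (SE 0.16; edgeR adjusted p = 0.346), and its range overlapped that of enterocyte-like cells. Its CPM, which lacks the TMM scaling of edgeR, was higher in 3 of 5 cultures, with a mean log2 difference of 0.11. Without the filter Hspa5 passed as lower (−0.54, edgeR adjusted p = 0.0137), in a fit where the median of all genes shifted by −0.353. Manf, Hsp90b1 and Pdia4, also not called, were higher by CPM in 5 of 5 cultures. Their mean log2 differences were 0.51, 0.37 and 0.79, against 0.20, 0.07 and 0.50 by edgeR. Xbp1 and Sdf2l1 were higher by CPM in 4 of 5 cultures and Dnajb9 in 1. Ranges lay apart for 3 of 10 genes, against 37.8% of all genes. With equal cell weights 61.7% of all calls were higher, against 49.3% here. These cells held the fewest UMIs (median 9724 per cell, 54 cells) and the goblet/Paneth marker RNA given above, whose part in the result was not tested.

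Set against enteroendocrine-like cells directly, goblet/Paneth-like cells were higher for 6 of the 8 genes tested (edgeR, 2676 genes tested, 29.9% called, 14.7% higher), and Dnajb9 and Ddit3 were too sparse to test. Sdf2l1 differed most, with a log2 difference of 1.81 (SE 0.27; edgeR adjusted p = 0.000114): 103, 169, 139, 141 and 116 CPM against 38.1, 30.8, 78.7, 45.7 and 33.8 CPM. Manf (1.04), Herpud1 (0.91), Hspa5 (0.84), Pdia4 (0.77) and Hsp90b1 (0.70) followed, with edgeR adjusted p from 0.000332 to 0.0182. Xbp1 (0.59, SE 0.22; adjusted p = 0.0533) and Creld2 (0.73, SE 0.33; adjusted p = 0.109) were not called. Xbp1 lay at the threshold and passed in edgeR with RLE size factors (adjusted p = 0.0481), without the filter on low counts (0.0165), with MULTIseqDemux (0.0346), at most 10% mitochondrial counts (0.0435), without the culture block (0.0461) and at Leiden resolutions 0.5 and 1.2 (0.0125 and 0.0372). The Pdia4 call was lost without control culture 1, control culture 2 or mutant culture 2, with edgeR adjusted p of 0.0744, 0.0706 and 0.0538. It was also lost with DESeq2 (adjusted p = 0.117) and with cells weighted equally (limma adjusted p = 0.0911), where Herpud1 was lost as well (0.70, adjusted p = 0.0574). Creld2 passed without control culture 2 (1.13, edgeR adjusted p = 0.0303) and without the filter (0.95, adjusted p = 0.0280). For 4 of the 10 genes the ranges lay apart, against 20.4% of all genes. With equal cell weights 34.3% of all calls were higher, against 49.1% here.

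**Figure D2:**
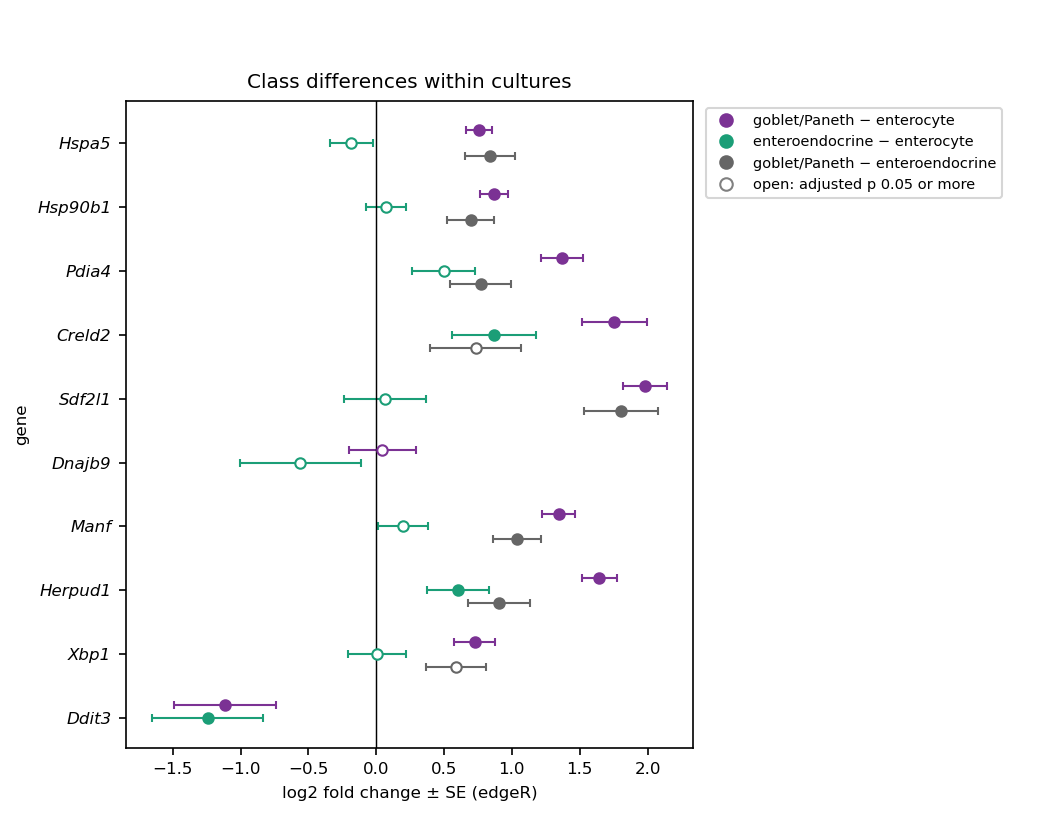
Log2 fold change (x axis, ± SE) of each gene (y axis) between pairs of cell classes within cultures, from edgeR with 5 cultures. Filled points passed adjusted p under 0.05. Goblet/Paneth-like minus enterocyte-like differences (purple) reach 1.98 for Sdf2l1, enteroendocrine-like minus enterocyte-like differences (green) are mostly open, and Ddit3 lies at −1.11 and −1.24.

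Stem-like cells gave a common baseline for both lineages. All 10 genes were higher in secretory than in stem-like cells (edgeR, 6660 genes tested; 17.8% called higher and 15.5% lower), from 0.60 (SE 0.11) for Hsp90b1 to 1.72 (SE 0.14) for Herpud1 on the log2 scale. Ddit3 (1.10, SE 0.38) had the largest edgeR adjusted p of the 10, at 0.0345. Between 8 and 10 genes passed in every alternative, 8 of them without control culture 2. Hspa5 rose from 305, 331, 348, 245 and 275 CPM in stem-like cells, and all secretory values lay above these. Ranges lay apart for 7 of 10 genes, against 23.3% of all.

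Absorptive cells differed from stem-like cells in another way. There 6 of 10 genes were higher and 2 lower (edgeR, 7404 genes tested; 62.4% called, 30.8% higher and 31.6% lower). Ddit3 led, with a log2 difference of 2.26 (SE 0.30; edgeR adjusted p = 3.00e-06), from 19.4, 6.49, 6.26, 7.0 and 16.5 CPM in stem-like cells to the absorptive values above, each of which exceeded every stem-like value. Dnajb9 rose by 1.26 (SE 0.20; edgeR adjusted p = 3.22e-05) from 12.7, 10.04, 12.5, 13.1 and 7.71 CPM. Hspa5 (0.71), Xbp1 (0.68), Herpud1 (0.43) and Manf (0.34) also passed. Pdia4 (−0.39, SE 0.14; adjusted p = 0.0264) and Sdf2l1 (−0.38, SE 0.14; adjusted p = 0.0288) were lower, while Creld2 (−0.03) and Hsp90b1 (0.01) were not called. Without control culture 2 or without mutant culture 1, none of the 10 passed as lower, and 1 did without control culture 1 or without mutant culture 3. For 3 of 10 genes the ranges lay apart, against 47.2% of all. Thus the genes highest in goblet/Paneth-like cells were not all raised in enterocyte-like cells, and Sdf2l1 had there its lowest mean of the 6 classes, at 33.6 ± 5.31 CPM (SD, n = 5), with overlap with enteroendocrine-like cells.

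Across 6 classes the order of levels differed by gene. Goblet/Paneth-like cells had the highest mean for 9 of 10 genes, and their 5 values lay above those of the next class for Hspa5, Herpud1, Sdf2l1 and Manf. Below that class neighbours mostly overlapped. For Hspa5, enteroendocrine-like (479 ± 57.8 CPM; SD, n = 5), enterocyte-like (444 ± 45.6), cluster 4 (386 ± 37.8), cycling-like (386 ± 34.9) and stem-like cells (301 ± 41.6) each overlapped the next. For Sdf2l1, cycling-like cells came next, at 73.0 ± 10.6 CPM, above cluster 4 in 5 of 5 cultures but with overlap. For Hsp90b1, cycling-like (606 ± 74.9 CPM) and enteroendocrine-like cells could not be ranked, with 2 of 5 cultures higher in the former. Pdia4 in enterocyte-like cells, at 53.5 ± 7.81 CPM, lay below all cultures of cluster 4, its neighbour in the order. For Dnajb9, goblet/Paneth-like (24.8 ± 7.20 CPM) and enterocyte-like cells (24.5 ± 7.12) could not be ranked, since 2 of 5 cultures had the higher value in the former. Ddit3 had its highest mean in enterocyte-like cells (49.2 ± 17.7 CPM), above enteroendocrine-like cells in 4 of 5 cultures, and cluster 4, stem-like and cycling-like cells (11 ± 1.6 CPM) overlapped at the low end. Within the enterocyte-like class the Apoa1-led cluster stood at 48.0, 68.3, 83.2, 65.6 and 70.4 CPM of Ddit3, the St3gal4-led cluster at 39.2, 113, 54.3, 34.7 and 10.04 CPM, and the Ly6d-led cluster at 25.8, 29.6, 18.6, 54.1 and 0 CPM. Ddit3 was thus uneven within the class, and the ranges of the 3 clusters overlapped.

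Per cell, each was thinned to 5000 UMIs, so that depth does not set the share of cells with a UMI. Hspa5 was then found in 93.6% of 78 goblet/Paneth-like, 83.3% of 215 enterocyte-like and 68.2% of 296 stem-like cells. Sdf2l1 was found in 42.3%, 15.8% and 17.6% of the same classes. Ddit3 was found in 11.5% of goblet/Paneth-like (27.1% unthinned), 20.4% of enteroendocrine-like, 17.2% of enterocyte-like (46.8% unthinned) and 4.05% of stem-like cells. For comparison with free RNA, the hormone-granule gene Chgb was found in 0% to 2.03% of the other classes, and the Paneth gene Defa24 in 22.3% to 49.0%. The Ddit3 shares lie above the first comparator and below the second, as do the Sdf2l1 shares of 15.8% and 17.6%. Chgb and Defa24 averaged 53.4 and 104 thinned UMIs in their own classes, so neither gauges free RNA of sparse genes. No order between classes was read from the Ddit3 shares. Thinned Ddit3 averaged 0.224 UMIs in 49 enteroendocrine-like, 0.228 in enterocyte-like and 0.167 in goblet/Paneth-like cells. The lower level in enteroendocrine-like cells by edgeR was thus not seen per cell at equal depth. Median depths before thinning were 18431, 9724, 27089 and 20602 UMIs in goblet/Paneth-like, enteroendocrine-like, enterocyte-like and stem-like cells. Thinning left out 7, 22 and 8 shallow goblet/Paneth-like, enterocyte-like and stem-like cells.

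Between classes the genes moved together to different degrees. Over 25 profiles of class by culture, which share 1 sequenced pool, Pearson's r was 0.89 between Herpud1 and Manf, 0.87 between Xbp1 and Herpud1 and 0.86 between Hspa5 and Manf. Ddit3 ran from −0.35 (with Sdf2l1) to 0.11 (with Hspa5), and Dnajb9 reached at most 0.53, with Xbp1. These values include the differences between classes. Over thinned single cells of 1 class, r was lower for the same pairs. Between Herpud1 and Manf it was −0.07 in stem-like, 0.02 in enterocyte-like, 0.19 in goblet/Paneth-like and −0.05 in cycling-like cells. In that order it was 0.16, −0.0055, 0.015 and 0.061 between Xbp1 and Herpud1, and 0.12, 0.28, 0.23 and 0.21 between Hspa5 and Manf. Most of these genes had few UMIs per thinned cell, whose part in this was not tested. Among 7678 genes compared over the 25 profiles, those most like Hspa5 included Serp1 (r = 0.93), Sec61g (0.91), Ostc (0.88), Tram1 (0.87), Calr (0.86), Kdelr2 (0.85) and Mia3 (0.85). Of these, Sec61g, Ostc and Tram1 belong to the translocon and its glycosylating complex. Those most like Xbp1 were Copa (0.91), Arl1 (0.91), Prxl2a (0.89), Sec61g (0.89), Mia3 (0.88), Ift20 (0.87), Trabd (0.87) and Cope (0.87), among them the coatomer subunits Copa and Cope. Serp1, a stress-associated protein of the membrane, stood at 242 CPM in goblet/Paneth-like, 138 in enteroendocrine-like, 146 in enterocyte-like and 79.6 in stem-like cells, as means of 5 cultures.

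The same secretory against absorptive comparison was read over 8 lists of related genes. Among lumenal chaperones 10 of 17 tested genes were higher and 0 lower, with a median log2 difference of 0.59 against 0.04 for all genes. This list holds 6 of the 10 genes, and without them 5 of 11 were higher and 0 lower. Dnajc10, a reductase of the lumen, rose by 2.72 (SE 0.20), the prolyl isomerase Ppib by 0.96 and the lectin chaperone Calr by 0.94. Their means were 83.5, 898 and 596 CPM in goblet/Paneth-like cells and 12.9, 422 and 245 CPM in enterocyte-like cells. The share of all genes called higher was 26.3%.

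Disulfide enzymes were higher in 10 of 17 and lower in 1 (median 1.03), and without the 10 genes higher in 9 of 16 (median 0.94). Txndc5 (3.55), Qsox1 (3.37) and Pdia5 (3.31) rose, whereas the oxidase Ero1l fell by 2.75 on the log2 scale, with means of 471 CPM in enterocyte-like and 70.5 CPM in goblet/Paneth-like cells. Genes of the translocon and of glycosylation were higher in 27 of 37 and lower in 0 (median 0.50), among them the signal peptidase subunits Spcs3 (1.60) and Sec11c (1.29), the translocon-associated Ssr2 (0.98) and the glycosylation subunit Ddost (0.84). Transport from the endoplasmic reticulum to the Golgi was mixed: 13 of 32 were higher and 2 lower (median 0.24). Its cargo receptors Tmed3 (1.67) and Tmed9 (1.2) rose, while the COPII coat gene Sec23a fell by 2.78 and Sar1b, a coat GTPase needed for chylomicron export, by 1.14.

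**Figure D3:**
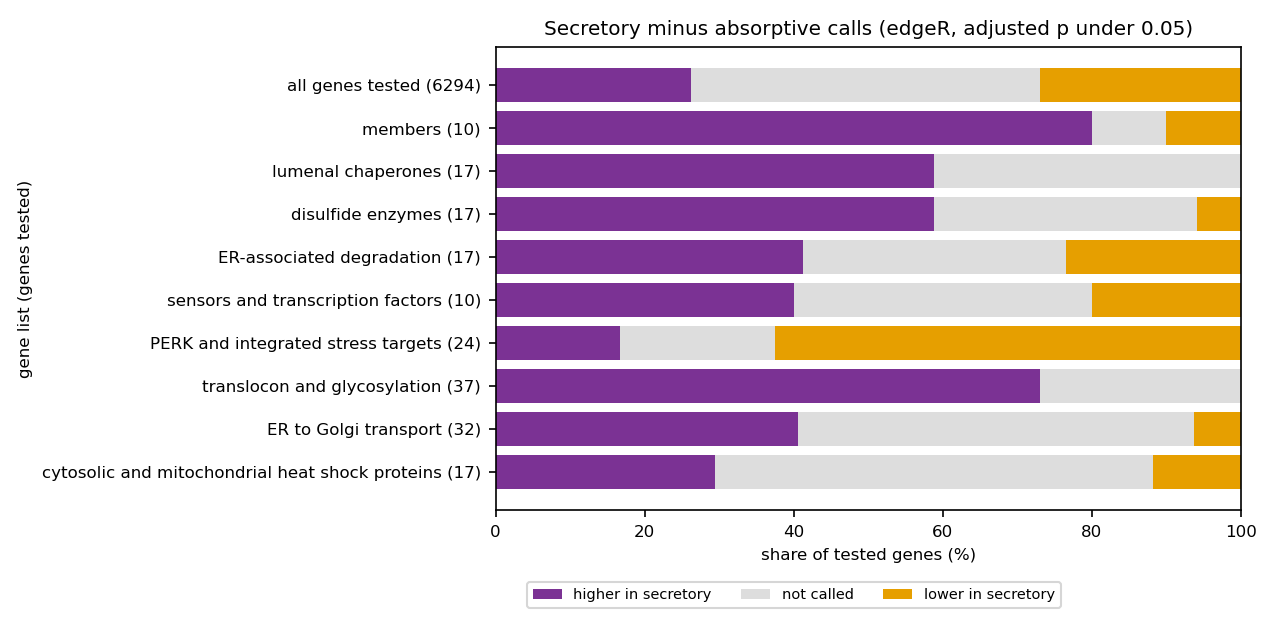
Share of tested genes (x axis, percent) called higher (purple), lower (orange) or not called (grey) in secretory minus absorptive cells by edgeR, for all 6294 genes, the 10 genes and 8 lists, some of which hold members of the 10. Translocon and glycosylation genes have 27 of 37 higher and none lower, and targets of PERK and the integrated stress response 15 of 24 lower.

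Degradation genes were higher in 7 of 17 and lower in 4 (median 0.08). Herpud1 led them, followed by the lectins Edem2 (0.86) and Os9 (0.58), while the channel gene Derl1 fell by 0.70. Cytosolic and mitochondrial heat shock proteins were higher in 5 of 17 and lower in 2, with a median of 0.00: Hsph1 (1.06), Stip1 (0.66) and Hsp90ab1 (0.36) rose and the mitochondrial Hspa9 fell by 0.61. The shares called higher in both lists lay nearer the 26.3% of all genes than those of the chaperones did. Without the 10 genes, 5 of 11 chaperones, 6 of 16 degradation genes and 5 of 17 heat shock proteins were higher. The contrast of chaperones with degradation genes was then small.

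Sensors and transcription factors of the response were higher in 4 of 10 and lower in 2 (median 0.33). Without the 10 genes, 3 of 8 were higher and 1 lower (median 0.38). Ern2, the epithelial IRE1 beta, averaged highest in goblet/Paneth-like cells, 81.8 CPM against 3.20 CPM in enteroendocrine-like and 0.765 CPM in enterocyte-like cells, from 142 secretory and 4 absorptive counts (log2 difference 6.01; edgeR). Creb3l1, a membrane-bound factor related to ATF6, stood at 190.2 CPM in goblet/Paneth-like cells and 6.80 CPM in enterocyte-like cells (4.28). Creb3l3, its relative in lipid-handling cells, had the reverse pattern, with 3 secretory and 258 absorptive counts. Scaled for depth, its absorptive level was 34.5 times the secretory one (exact 95% interval 11.7 to 168, for counting error only). Ern2, Creb3l1 and Creb3l3 could pass the filter on low counts only through the class where they were high. A difference was thus built into their selection, and their calls are described without weight as tests. The same may hold for other list genes with a low level in 1 class, such as Dnajc10 and Atf5. The list counts given here include such genes. Named for their role after the values were seen, Atf6 (0.21, adjusted p = 0.585) and Atf4 (0.19, adjusted p = 0.152) were not called by edgeR, and Ern1 and Eif2ak3, which encode IRE1 alpha and PERK, had too few counts to test, 26 and 23 in secretory cells.

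Targets of PERK and the integrated stress response went the other way. Of 24 tested, 15 were lower in secretory cells and 4 higher, with a median of −0.90, and without Ddit3 14 of 23 were lower, where 26.9% of all genes were called lower and 26.3% higher. Atf5 fell by 2.95, Cth, of cysteine synthesis, by 2.65, Nupr1 by 1.85 and the asparaginyl-tRNA synthetase Nars by 1.33. In goblet/Paneth-like and enterocyte-like cells Atf5 averaged 11.9 and 106 CPM, and Cth 57.6 and 292 CPM. Against stem-like cells, absorptive cells had 15 of 24 of these targets higher and 4 lower (median 0.87 against −0.03 for all genes). There 30.8% of all genes were called higher and 31.6% lower. Secretory cells had 6 of 22 higher and 4 lower than stem-like cells (median −0.10 against 0.00 for all genes). In that fit 17.8% of all genes were called higher and 15.5% lower. By the median of this list, secretory cells thus lay near stem-like cells, and absorptive cells above them. The 2 secretory kinds of cell differed from enterocyte-like cells in unlike numbers of these genes. In goblet/Paneth-like cells 12 of 17 chaperones, 11 of 17 disulfide enzymes and 29 of 37 translocon and glycosylation genes were higher (medians 0.77, 1.37 and 0.72), where 25.2% of all genes were. In enteroendocrine-like cells the counts were 3 of 13, 5 of 14 and 7 of 35 (medians 0.06, 0.24 and 0.24), where 24.6% of all genes were higher. Without the 10 genes, 7 of 11 chaperones were higher in goblet/Paneth-like cells (median 0.74) and 2 of 7 in enteroendocrine-like cells (median −0.11). Disulfide enzymes were then higher in 10 of 16 and 5 of 13 (medians 1.11 and 0.17). Targets of PERK and the integrated stress response were lower in 14 of 23 (goblet/Paneth-like) and 13 of 24 (enteroendocrine-like; medians −0.79 and −0.94). Of all genes, 24.7% and 25.2% were lower. Without Ddit3 these targets were lower in 13 of 22 and 12 of 23.

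**Figure D4:**
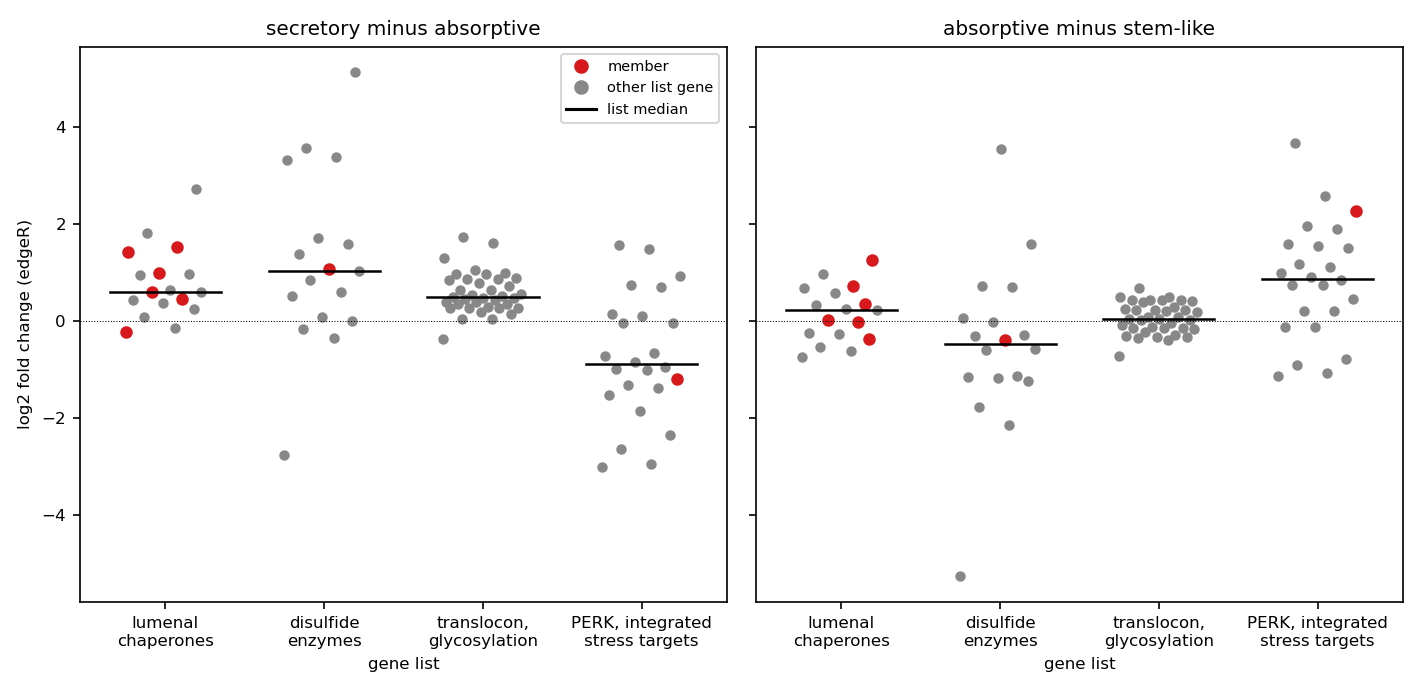
Log2 fold change (y axis, edgeR) of every tested gene of 4 lists, for secretory minus absorptive (left) and absorptive minus stem-like (right). Red points are genes among the 10, grey points other list genes and bars list medians. The median of targets of PERK and the integrated stress response is −0.90 on the left and 0.87 on the right. That of chaperones is 0.59 and 0.23.

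The last comparison, mutant against control, asked whether Etv1 mutation changes these genes. None of the 10 was called over all cells, where edgeR called 1 of 11061 genes (0.00904%), the gut hormone gene Pyy, lower in mutants and named here after its values were seen, at the adjusted threshold and 133 higher and 204 lower at an unadjusted p under 0.05. The log2 differences of the 10 ran from −0.09 to 0.08 with SE of 0.09 to 0.18 (edgeR unadjusted p from 0.398 to 0.932), and DESeq2 called none of them either. Hspa5 stood at 395 and 421 CPM in controls and 446, 386 and 391 CPM in mutants, a log2 difference of −0.01 (SE 0.09; edgeR adjusted p = 1.0). Xbp1 stood at 73.3 and 71.6 CPM against 61.9, 72.2 and 74.9 CPM. Ddit3 stood at 19.7 and 21.3 CPM against 17.3, 22.2 and 18.1 CPM, and Sdf2l1 at 51.7 and 66.1 CPM against 77.6, 56.7 and 53.2 CPM. The groups overlapped in all of these. In simulated data of this comparison, 77% of 2-fold changes were recovered, so smaller changes would often be missed. That share is over all 11061 genes and is not specific to the 10. The same simulation gave 21 false calls among 10766 unchanged genes.

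Within classes there was no call among the 10 either. Among secretory cells none of the 10 passed (5827 genes tested, 0.0172% called), with values from −0.67 (SE 0.66) for Ddit3 to 0.32 (SE 0.32) for Creld2. Among absorptive cells none passed (7287 tested, 0.0% called; at an unadjusted p under 0.05, 88 higher and 91 lower), with values from −0.31 (SE 0.32) for Ddit3 to 0.47 (SE 0.25) for Creld2. DESeq2 called 0 genes there as well. In stem-like cells all 10 values lay below 0, from −0.43 (SE 0.48) for Ddit3 to −0.02 (SE 0.14) for Hsp90b1, and none passed (8041 tested, 0.0124% called). With cells weighted equally 4 of these values lay above 0. Herpud1 stood there at 66.7 and 46.1 CPM in controls and 31.3, 49.0 and 56.1 CPM in mutants (log2 difference −0.33, SE 0.22; edgeR adjusted p = 0.937), with overlap. The test of whether the secretory minus absorptive difference itself varied with genotype passed for none of the 10 (interaction fit of 7878 genes, 0.0127% called), the largest value being 0.36 (SE 0.28; edgeR adjusted p = 1.0) for Xbp1. With 2 against 3 cultures these standard errors leave room for changes of moderate size.

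**Figure D5:**
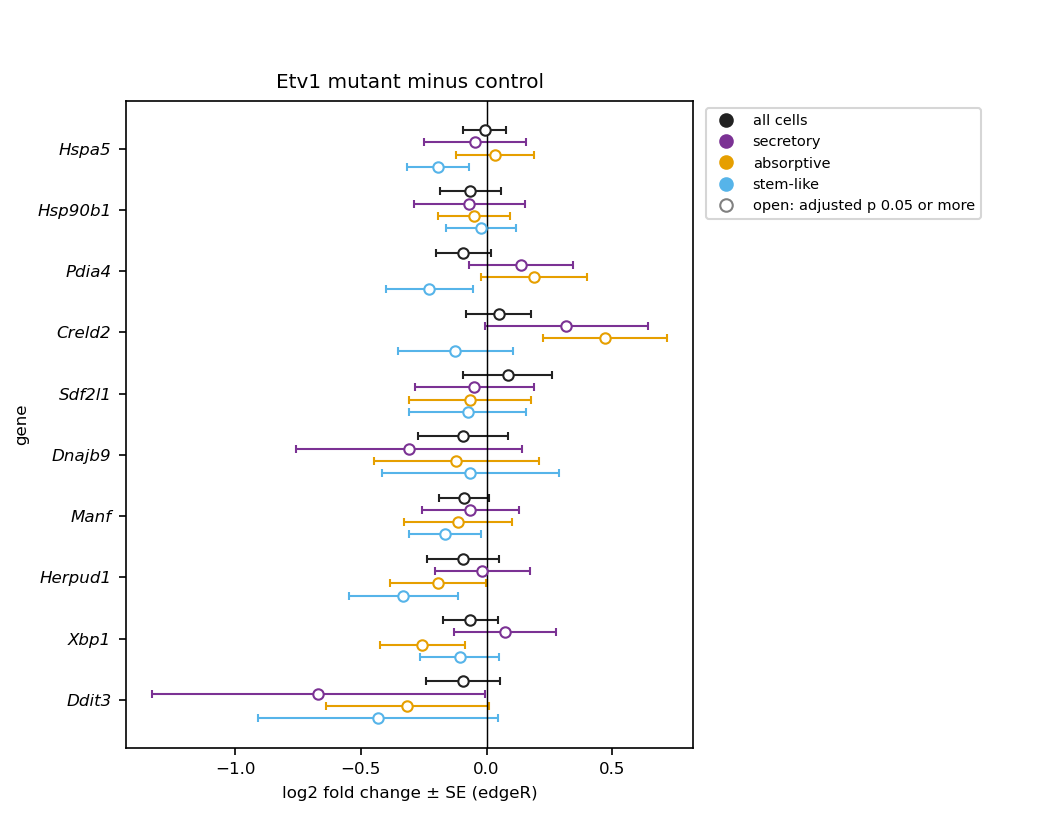
Log2 fold change of mutant minus control (x axis, ± SE, edgeR; 2 control and 3 mutant cultures) for each gene (y axis) in all cells and in 3 classes. All points are open, since none passed adjusted p under 0.05, and those for all cells lie between −0.09 and 0.08.

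The related lists showed no call over all cells either, with 0 genes passing in each of the 8. Of targets of PERK and the integrated stress response, 25 of 29 had values below 0 (median −0.14 against 0.00 for all genes). Gpt2 (−1.15, SE 0.24; edgeR unadjusted p = 0.00176) and the cystine transporter Slc7a11 (−0.67, SE 0.18; unadjusted p = 0.00699) had the smallest p of that list, and neither passed after adjustment (edgeR adjusted p = 1.0 for both). Both were sparse, at 4.98 and 8.75 CPM over all cells, as means of 5 cultures.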

How the data were processed

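Single-cell RNA and hashtag libraries of 5 pooled organoid cultures were analysed from the deposited tables. The authors deposited the RNA table as estimated counts per gene and cell (95.55% of values above 0 are whole numbers) and the hashtag table as counts. Salmon 1.4.0, alevin, Seurat 4.3.0, Cell Ranger 6.1.0 and the mm10 build are named, without their roles, in the notes on processing that the submitters gave. Estimated counts were summed per culture and class and rounded before testing. The labels call the cultures biological replicates without saying how they were derived, so p-values refer to these cultures only. Between genotypes they measure the spread between cultures. Between classes, with culture as a block, they measure how far the class difference varied from culture to culture.

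Barcodes with at least 500 genes and at most 25% mitochondrial counts were kept (2725 of 3409) and assigned to cultures by HTODemux (Seurat 5.3.0, quantile 0.99), which left 1432 cells. Of the 3409 barcodes it called 1322 negative and 273 doublets with several hashtags, and both were removed. The alternative, MULTIseqDemux, called 1009 negative and 563 doublets. For control culture 2 the 2 methods called 452 and 279 barcodes, so culture identity depends in part on the method. Doublets within a culture were not called. Cells were clustered in scanpy 1.11.5 (2000 variable genes less 21 member or list genes, 30 components, 15 neighbours, Leiden resolution 0.8) and named from marker lists. Other genes of the same cells still shaped the classes. A class needed 5 cells per culture. Tests used edgeR 4.0.16 (TMM, its filter on low counts, Benjamini-Hochberg), with culture as a block between classes, which come from the same cultures. DESeq2 1.42.0 and limma 3.58.1 (log2 of CPM plus 1) served as alternatives, in R 4.3.3. On simulated counts the secretory minus absorptive test, run on 6294 genes, recovered 79.2% of 2-fold and 98.9% of 4-fold changes. It made 8 false calls among 5924 unchanged genes. The simulation had no culture effects and changed far fewer genes than the 53.2% called in the data, so its rates may not carry over. Intervals cover counting error only.

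The 10 members and the related lists were chosen with earlier results of these data known. Named were the members in every comparison, the up to 4 genes of each other list with the smallest p between secretory and absorptive cells and the up to 2 between genotypes, and the 8 genes whose profiles were most like those of Hspa5 and of Xbp1, of which 1 is not reported here.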

Additional observations from a re-analysis of the deposited data

Results flagged for a closer look

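The secretory minus absorptive difference of Ddit3 in mutant culture 1 stood apart from those of the other 4 cultures only with its secretory value entered as 0. It was then −5.79 on the scale of log2(CPM + 1), a size set by the pseudocount of 1, against −1.12 to 0.30 in the others, and the gap to the nearest culture was 0.767 of the whole range, where 0.71 is the 95% limit for 5 values. Chance alone flags about 1 in 20 such groups. The secretory cells of that culture had 0 Ddit3 counts among 353344 UMIs, which allows up to 8.49 CPM (3 counts, counting error only), while its absorptive cells stood at 54.2 CPM, at least 6.39-fold higher than that limit. With the limit in place of 0, a choice made after seeing the data, the difference was −2.54 and the gap 0.501 of the range, under 0.71, so that the culture no longer stood apart.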

How the results depend on the processing

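Of 1279 values recomputed under an alternative, 1105 kept their direction and their side of the threshold or moved little, 88 moved, 40 reversed, 32 lost their call and 14 gained one. Without any single culture, the number of the 10 genes higher in secretory than in absorptive cells was again 8. The number lower was 0 with cells weighted equally and 2 against the Apoa1-led cluster alone. Low depth in secretory cells limits Ddit3 and Dnajb9. The causes of the changes below were not tested.

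Without the filter on low counts the median of all genes shifted by −0.167 (secretory minus absorptive), −0.236 (goblet/Paneth-like minus enterocyte-like), −0.353 (enteroendocrine-like minus enterocyte-like) and 0.222 (goblet/Paneth-like minus enteroendocrine-like). With cells weighted equally it shifted by 0.189, 0.219 and −0.186 in the first comparison and both enteroendocrine ones, and by −0.176 in absorptive minus stem-like.

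For goblet/Paneth-like minus enterocyte-like cells, DESeq2 called 900.0 genes higher, and 2302 were lower without the filter. Dnajb9 turned to −0.0013 with RLE, −0.19 without the filter, −0.081 with MULTIseqDemux, −0.13 with cells weighted equally, −0.061 at Leiden resolution 0.5 and −0.12 with clusters from all genes. Leaving out a culture gave −0.12 to 0.13, and 0 to 1 members lower.

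For enteroendocrine-like minus enterocyte-like cells, 2328 genes were lower without the filter and 826 with cells weighted equally. Members higher numbered 1 with RLE and at Leiden resolutions 0.5 and 1.2, 0 with DESeq2, without the filter and with MULTIseqDemux, and 5 with cells weighted equally; members lower numbered 2 without the filter and 0 with cells weighted equally. Leaving out a culture gave 0 to 1 higher and 0 to 1 lower. Hspa5 turned to 0.12 with cells weighted equally. Xbp1 turned to −0.037 (RLE), −0.045 (DESeq2), −0.35 (no filter), −0.053 and −0.018 (Leiden 0.5 and 1.2) and −0.014 (clusters from all genes). Sdf2l1 turned to −0.29 (no filter), −0.057 (MULTIseqDemux) and −0.018 (Leiden 1.2), Manf to −0.15 (no filter), and Hsp90b1 to −0.29 (no filter) and −0.020 (MULTIseqDemux). Leaving out a culture gave −0.21 to 0.044 for Xbp1, −0.24 to 0.21 for Sdf2l1 and −0.044 to 0.094 for Hsp90b1.

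For goblet/Paneth-like minus enteroendocrine-like cells, 767 genes were higher without the filter and 242 with cells weighted equally; 219 were lower with DESeq2 and 635 without the filter. DESeq2 called 750.0 genes higher and 580.0 lower in secretory minus stem-like cells. In absorptive minus stem-like cells, 3 members were higher with cells weighted equally, and members lower numbered 0 with DESeq2 and at most 10% mitochondrial counts, 1 without the filter, with MULTIseqDemux and at Leiden 1.2, and 0 to 2 without a culture.

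Without the replicate block between classes, 0 members were lower in goblet/Paneth-like than enterocyte-like cells, 1 was lower in absorptive than stem-like cells, 9 were higher in secretory than stem-like cells, and Xbp1 passed between goblet/Paneth-like and enteroendocrine-like cells (0.58, edgeR adjusted p = 0.0461). No paired analysis was possible because, between genotypes, no label pairs a control with a mutant culture.

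Between genotypes, none of the members passed in any alternative. Over all cells, genes higher numbered 2 with DESeq2, 1 without the filter and 1 with cells weighted equally, and genes lower 7 with DESeq2 and 2 with MULTIseqDemux; leaving out a culture gave 0 to 2 and 1 to 5. In secretory cells they numbered 1 higher with DESeq2, 10 higher and 61 lower without the filter, and 0 to 3 and 1 to 24 without a culture. In absorptive cells they numbered 27 and 13 without the filter, and 0 to 3 and 0 to 2 without a culture. In stem-like cells they numbered 14 and 14 without the filter, 2 and 1 with MULTIseqDemux and with clusters from all genes, and 0 to 7 and 0 to 17 without a culture. The interaction gave 0 to 1 and 0 to 13 without a culture. Over all cells Hspa5, Herpud1 and Dnajb9 turned to 0.012, 0.0070 and 0.058 with MULTIseqDemux, and Ddit3 to 0.27 with cells weighted equally. Without a culture, Hspa5 ran from −0.067 to 0.025, Xbp1 from −0.12 to 0.023, Herpud1 from −0.23 to 0.0067, Sdf2l1 from −0.092 to 0.24, Dnajb9 from −0.21 to 0.020, Creld2 from −0.12 to 0.22, Pdia4 from −0.23 to 0.043 and Hsp90b1 from −0.18 to 0.020.

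Without thinning, shares of cells with a UMI were 37.6%, 40.1%, 19.7% and 16.9% for Dnajb9 in goblet/Paneth-like, enterocyte-like, stem-like and cycling-like cells, and 27.1%, 46.8%, 18.8% and 27.4% for Ddit3.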
